A study of Avicennia schaueriana with 18 samples.

Results

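Stems were compared with leaves within 3 adult, flowering trees of the mangrove *Avicennia schaueriana* at the subtropical site. The 6 libraries, a stem and a leaf library from each of the trees St1, St2 and St4, were taken from the 18 libraries of the series by the tissue and tree in their labels, and were paired by tree. The series also holds flowers of the same trees and all 3 tissues of 3 equatorial trees. The subtropical samples were collected in the field in August, with no treatment. The equatorial trees were sampled in July, at 28.3 to 30.1 °C and in drier air, so site, month and weather cannot be told apart. St1 was sampled on day 23 at 15 h 15, at 19 °C and 84% relative humidity, St2 on day 24 at 10 h 35, at 18.3 °C and 86%, and St4 on day 25 at 13 h 11, at 20.9 °C and 82%. The stem and the leaf of a tree share the day and the hour, so time of day is balanced between the tissues and differs between the trees. By the study's methods the trees stood well apart and were sampled at low tide. Each library is 1 tissue of 1 wild tree, and no genotype is given.

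A woody stem carries xylem, whose water-conducting vessels and fibres lay down a thick secondary wall of cellulose, xylan and lignin. A leaf is dominated by green cells that hold the photosystems and that make chlorophyll, carotenoids and their isoprenoid precursors in the plastids. Mangroves stand in saline, tidal soil, and both water transport and the sugars and proteins that protect cells from dehydration are of known importance to them.

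The gene names used here are those of *Arabidopsis thaliana* matches that the study's supplementary tables pair with 130 transcripts, and the roles given are those known in Arabidopsis. Most of these transcripts were put in those tables because they differed between the sites in these same leaf and stem libraries. The cell wall transcripts were mostly listed for low levels in subtropical leaves, and the photosynthesis transcripts for high ones. Their direction between stem and leaf, and its difference between the sites, are therefore not independent of that choice.

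For members on which results below turn, the primer pairs designed by the study for quantitative PCR give the sequence by which each transcript can be recognised. They are printed 5′ to 3′ in lower case, with no part capitalised, left primer before right. LAC4 stands for the lignified wall, GolS1 for raffinose synthesis, PIP1;4 for water transport, and PSAO and PSB27 for the photosystems.
LAC4 left: acgcaacacctgtaacaacc
LAC4 right: tggcaaacatcagtgagtggtc
GolS1 left: tttgaacccgccaaatccac
GolS1 right: acgcatttggaatcggcttg
PIP1;4 (As_44068) left: agtgccttggtgccatttgtg
PIP1;4 (As_44068) right: acaaaggtgcccacgatttcag
PSAO left: aacagtccaaggtgccacag
PSAO right: aagcattccggccatcaacg
PSB27 left: tggccagaaaccgcattaag
PSB27 right: tgatccgaacattgccacag

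Values are raw counts of uniquely mapped reads, given as CPM (counts divided by the library size, which TMM scaling adjusts over the 6 libraries). They can be set against each other between libraries but not between transcripts, since they are not divided by length. Totals were 9894226 to 14528522 counts in stems and 8749713 to 11603596 in leaves. The stem libraries detected 45374 to 46289 of the 49490 transcripts, against 41546 to 43196 in the leaf libraries. The mean leading log2 distance, over the 500 transcripts that differed most in each pair of libraries, was 6.05 ± 0.319 between the stem and the leaf of a tree (SD, n = 3 pairs). It was 3.13 ± 0.206 between stem libraries and 3.26 ± 0.0182 between leaf libraries. By the labels, the stem and leaf libraries of a tree carry the same index sequence. The index alone could not tell them apart within 1 lane. Lanes are not given in the sources used here, and their part in the differences was not tested.

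Tissue markers went with the labels. The markers come from lists that the study chose partly on these leaf libraries, so they are not an independent check of the labels. The summed level of 7 markers of xylem with secondary walls (CESA4, CESA7, CESA8, LAC4, FLA11, COBL4, NST1) was 260.0 to 680 CPM in stems and 7.97 to 11.0 CPM in leaves. All 7 had counts in every stem, and 6 of the 7 in each leaf, with NST1 at 0 in all 3 leaves. The summed level of 4 markers of green tissue (PSBO1, PSAO, PSB27, ATPD) was 163 to 260.0 CPM in stems and 556 to 784 CPM in leaves, and all 4 were detected in every library. In bulk tissue, fewer cells of a type and less RNA per cell cannot be told apart, which holds for every difference below.

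Of 31766 transcripts with enough counts to be tested, 4372 were higher in stem (13.8%) and 4189 lower (13.2%), at an adjusted p under 0.05 by edgeR's quasi-likelihood test with the tree as a block and Benjamini-Hochberg adjustment. Together 8561 were called, 27.0% of those tested. Counts called in the lists below are to be read against these shares. In 8556 of the called transcripts the stem library lay on the same side of its own tree's leaf library in all 3 trees. In 7773 the stem and leaf values did not overlap. Among all transcripts tested, 21.3% had every stem above every leaf and 17.6% every stem below. The call rate among coding transcripts was 32.1% (7479 of 23291) and among non-coding ones 12.8% (1082 of 8475). Their median levels differed as well, 16.3 CPM in coding and 2.21 CPM in non-coding transcripts, so the rates were also taken within bands of mean level. The bands are wide, and levels within a band were not matched. At a mean of 10 to 100 CPM, 31.9% of coding and 27.7% of non-coding transcripts were called. At 1 to 10 CPM the rates were 30.0% and 11.0%, under 1 CPM 36.1% and 12.3%, and over 100 CPM 42.9% and 35.9%. The count filter can keep a transcript through 1 tissue alone, which bears most on the lowest band. Of the 147 coding calls under 1 CPM, 127 were higher in stem and 20 lower, so the rate there is not independent of the filter.

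The direction of the calls shifted with the level of the transcript. Of the coding transcripts called at a mean of 1 to 10 CPM, 1786 were higher in stem and 744 lower. Above 100 CPM, 147 were higher in stem and 586 lower. Large differences were mostly on the stem side: 575 of the called transcripts were more than 32-fold higher in stem and 147 more than 32-fold lower. In all, 278 transcripts had no count in any leaf library and at least 10 in each stem library, and 34 had none in any stem and at least 10 in each leaf.

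The balance between the directions moved with the scaling. TMM factors were 1.05 to 1.19 in stems and 0.873 to 0.953 in leaves. Scaled by library totals alone, the median log2 fold change of all transcripts moved up by 0.28, and 6769 were called higher in stem against 3074 lower. The share higher in stem was then 68.8% of the calls, and 51.1% with TMM scaling. Log2 fold changes below are relative to the TMM scale.

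**Figure D1:**
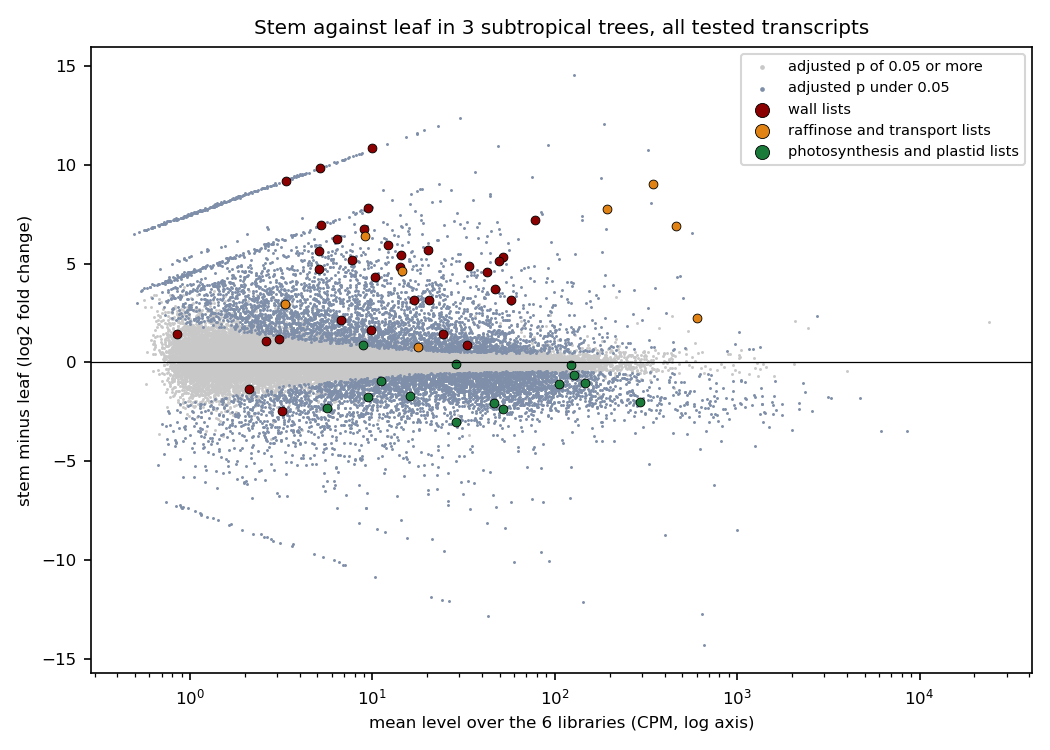
Each point is 1 tested transcript, with its mean level over the 6 libraries on a log axis (CPM) and its stem minus leaf log2 fold change. Grey points were not called, blue points had an adjusted p under 0.05, and large points are the members of the wall, raffinose and transport, and photosynthesis and plastid lists. The straight diagonal bands at the edges are transcripts with no or 1 count in 1 tissue.

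Transcripts of wall synthesis were the named group with the most members higher in stem. Of 37 transcripts in 5 wall lists, 33 were tested, 27 were higher in stem, 1 was lower and 5 were not called. The median log2 fold change of all 37, fitted with no filter on low counts, was 4.55, and that of all transcripts fitted in the same way was 0.15. These lists were chosen by the study partly on the leaf libraries used here.

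The 3 cellulose synthases of the secondary wall were all higher in stem. CESA4 (As_17083) had 151, 53.4 and 99.9 CPM in stems (St1, St2 and St4, an order kept below), against 2.36, 2.60 and 1.93 CPM in their leaves. Its stem minus leaf log2 fold change was 5.33 ± 0.35 (SE, edgeR adjusted p = 0.00057, n = 3 trees). CESA7 (As_14056) had 90.1, 42.7 and 64.3 CPM in stems, against 2.48, 2.20 and 1.69 CPM in leaves, a log2 fold change of 4.89 ± 0.26. For both, every stem was far above every leaf, and the stem of St2 was the lowest stem. CESA8 (As_12790), the other subunit of this complex, had 143, 57.1 and 89.9 CPM in stems and 3.66, 2.50 and 1.69 CPM in leaves, a log2 fold change of 5.15 ± 0.27. COBL4, which takes part in depositing cellulose in these walls, and FLA11, a fasciclin-like arabinogalactan protein, differed by 4.31 ± 0.53 and 5.96 ± 0.33 on the log2 scale. All 5 members of the cellulose list were called higher in stem.

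Xylan is the main hemicellulose of hardwood secondary walls. Of 10 xylan transcripts 8 were tested, and all 8 were higher in stem, by log2 fold changes of 5.17 to 9.83. The 2 transcripts not tested were matches of IRX9-L, a backbone synthesis gene, with at most 1.95 CPM in any stem and 0.845 CPM in any leaf. TBL33 (As_19348), of a family that acetylates xylan, had 56.1, 21.7 and 41.1 CPM in stems, against 0.827, 0.799 and 0.483 CPM in leaves, a log2 fold change of 5.70 ± 0.35. TBL3 of the same family had 21.0, 5.67 and 11.2 CPM in stems, against 0.236, 0 and 0.241 CPM in leaves. Leaf levels of both stayed under 1 CPM in every tree.

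PGSIP1 (As_44402), of the family that adds glucuronic acid to xylan, had 27.4, 10.5 and 19.0 CPM in stems, against 0.236, 0 and 0 CPM in leaves, a log2 fold change of 7.80 ± 0.56. GXM1, which methylates that side chain, had 16.8, 6.71 and 7.47 CPM in stems, against 0.236, 0 and 0 CPM in leaves. Both were thus near the limit of detection in leaves. GAUT12 (As_3499), needed to make the sequence at the xylan reducing end, had 14.6, 5.16 and 11.4 CPM in stems and no count in any leaf. Set against a floor of 3 counts over the 3 leaf libraries, it was at least 95.8-fold higher in stem. GATL1, which acts at the same step, was higher by 5.17 ± 0.43 on the log2 scale, IRX14-L by 6.74 ± 0.54 and IRX15-L by 5.65 ± 0.59.

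Lignin transcripts were mostly higher in stem, with 1 exception. LAC4 (As_15146), a laccase that couples lignin monomers in the wall, had 222, 78.0 and 165 CPM in stems, against 1.42, 0.499 and 1.21 CPM in leaves. The log2 fold change was 7.20 ± 0.19 (SE, edgeR adjusted p = 0.00015, n = 3 trees). The peroxidase matches AT5G66390 and AT5G05340 were higher by 4.56 ± 0.42 and 3.17 ± 0.25. 4CL2 (As_13197), which activates hydroxycinnamic acids for lignin and other phenylpropanoids, had 28.7, 30.8 and 22.9 CPM in stems and 0.472, 1.20 and 1.21 CPM in leaves.

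FAH1 (As_9876), the hydroxylase on the way to syringyl lignin and sinapate esters, went the other way. It had 0.569, 0.860 and 1.56 CPM in stems, against 3.66, 4.59 and 7.97 CPM in leaves, a log2 fold change of -2.46 ± 0.38 (edgeR adjusted p = 0.0055). The groups did not overlap, and levels were low in both tissues. Unlike most wall transcripts, FAH1 was listed by the study for a high level in subtropical leaves.

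Both wall transcription factors were higher in stem. NST1 (As_38619), a NAC factor that switches on secondary wall formation, had 12.0, 3.27 and 4.87 CPM in stems and no count in the leaves, which makes it at least 61.1-fold higher against the same floor. MYB52 had 9.68, 13.2 and 9.88 CPM in stems and 1.89, 3.99 and 1.81 CPM in leaves, a log2 fold change of 2.14 ± 0.30.

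**Figure D2:**
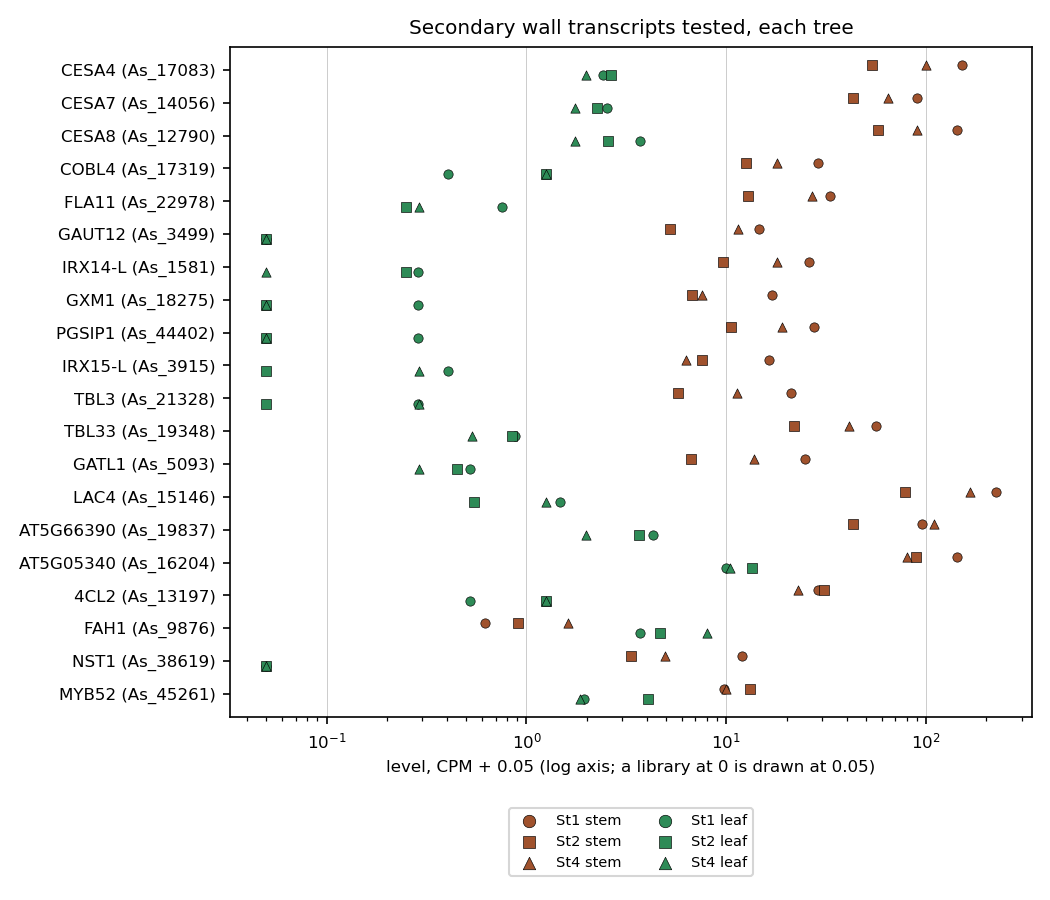
Levels of the 20 tested transcripts of the cellulose, xylan, lignin and wall transcription factor lists in each tree (CPM plus 0.05, log axis), with the stem points in brown and the leaf points in green, and 1 symbol for each tree. Every stem lies above every leaf except for FAH1, and the square of St2 is the lowest stem in most rows.

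Outside the secondary wall the differences were less uniform. Of 15 transcripts for other wall polysaccharides, 13 were tested, 8 were higher in stem and 5 were not called. CSLG1 (As_17427), a cellulose synthase-like protein, had 8.82, 29.4 and 21.6 CPM in stems and no count in leaves, at least 173-fold higher against the floor. GH9B7, a glycosyl hydrolase of the endoglucanase family, was higher by 5.41 ± 0.52. CESA6, a cellulose synthase of the primary wall, had 49.6, 14.6 and 27.9 CPM in stems, against 2.83, 2.40 and 4.23 CPM in leaves, a log2 fold change of 3.15 ± 0.35. Of the tested members of this list, GATL2 alone had a negative value, -1.37 ± 0.47, which missed the threshold (adjusted p = 0.079).

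The 3 stems differed among themselves in an ordered way across the wall transcripts. St2 had the lowest stem value in 26 of the 33 tested, and St1 the highest in 23. Medians over the 33 were 26.0 CPM in the stem of St1, 12.7 CPM in that of St2 and 19.0 CPM in that of St4. Among leaves, each tree had the single lowest value in 8 to 10 of the 33, and the single highest in 14 (St1), 5 (St2) and 11 (St4). The stem of St2 also had the lowest total count of the stems and the highest TMM factor (1.19), and its 10 most abundant transcripts held 3.64% of its counts, against 10.6% in St1 and 6.82% in St4. The part of these in the order was not tested.

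Photosynthetic transcripts were lower in stem. Of 6 transcripts 5 were called lower and none higher. Their median was -1.84 on the log2 scale, where that of all tested transcripts was 0.07. All 6 were lower in every stem than in any leaf. By unadjusted p none was higher, and neither DESeq2 nor the exact test called 1 higher. The study listed these transcripts for their high levels in subtropical leaves.

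PSAO (As_26420), a subunit of photosystem I, had 158, 79.9 and 120.0 CPM in stems, against 562, 479 and 365 CPM in leaves. The log2 fold change was -2.00 ± 0.22 (SE, edgeR adjusted p = 0.0019, n = 3 trees). PSBO1 (As_16502), of the oxygen-evolving complex of photosystem II, differed less, with 74.1, 59.6 and 66.0 CPM in stems and 136, 168 and 131 CPM in leaves, a log2 fold change of -1.12 ± 0.17. For both, no stem reached the level of any leaf.

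PSB27, a photosystem II assembly factor, had 19.7, 17.5 and 14.4 CPM in stems and 72.5, 105 and 49.6 CPM in leaves, a log2 fold change of -2.08 ± 0.20. PQL2 and PQL3, PsbQ-like proteins, fell by 2.36 ± 0.17 and 1.69 ± 0.23. ATPD, the delta chain of the chloroplast ATP synthase, had 8.47, 6.11 and 8.25 CPM in stems and 14.6, 19.4 and 10.4 CPM in leaves. It did not pass the test (log2 fold change -0.93 ± 0.31, adjusted p = 0.074), although no stem reached a leaf. It passed the threshold without St4 and by the exact test.

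Plastid isoprenoid and chlorophyll transcripts were split. Of 8, 5 were lower in stem, none was higher and 3 were not called. At an unadjusted p under 0.05, 1 was higher, and neither DESeq2 nor the exact test called it. Scaled by library totals, 2 were lower and 1 higher. CLA1 (As_26117), the first enzyme of the plastid isoprenoid pathway, had 20.6, 2.58 and 2.21 CPM in stems, against 74.5, 51.1 and 21.2 CPM in leaves, a log2 fold change of -3.05 ± 0.47. The stem of St1 came close to the leaf of St4, and without the block by tree the call was lost. CAO (As_12775), which makes chlorophyll b, ran in the other direction from the photosystems, with 10.5, 12.0 and 11.8 CPM in stems and 8.26, 6.09 and 4.83 CPM in leaves. Its log2 fold change of 0.86 ± 0.28 missed the threshold (adjusted p = 0.068), and passed it under scaling by library totals.

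Isopentenyl diphosphate isomerase and geranylgeranyl diphosphate synthase, which supply the building blocks of carotenoids and the chlorophyll side chain, each had a pair of transcripts matched to them. GGPS1 As_17120 had 73.5, 149 and 73.7 CPM in stems and 188, 205 and 188 CPM in leaves, a log2 fold change of -1.06 ± 0.22. The other GGPS1 transcript, As_24340, had 137, 105 and 110 CPM in stems and 129, 136 and 124 CPM in leaves, with overlapping groups and no call (adjusted p = 0.52). The GGPS1 As_17120 call was lost without St1 (adjusted p = 0.069) and with library totals (0.059). IPP1 As_21256 had 3.13, 1.63 and 0.520 CPM in stems and 10.4, 16.3 and 1.93 CPM in leaves, a log2 fold change of -2.33 ± 0.43. Its groups overlapped, and the call was lost without St2 (adjusted p = 0.063) and without the block by tree (0.071). IPP1 As_19328 had 119.7, 103 and 70.7 CPM in stems and 209, 165 and 93.8 CPM in leaves, also overlapping, with a log2 fold change of -0.63 ± 0.15. That call held in 5 of 12 alternatives, and was lost without St1 (adjusted p = 0.15), without St2 (0.099) and with library totals (0.13), among others. Reads shared by such close copies were left out of the counts, so levels of single copies are uncertain. ABC4, of phylloquinone synthesis, fell by 1.77 ± 0.51 with an adjusted p of 0.047, which was 0.23 without St2 and 0.095 without St4.

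**Figure D3:**
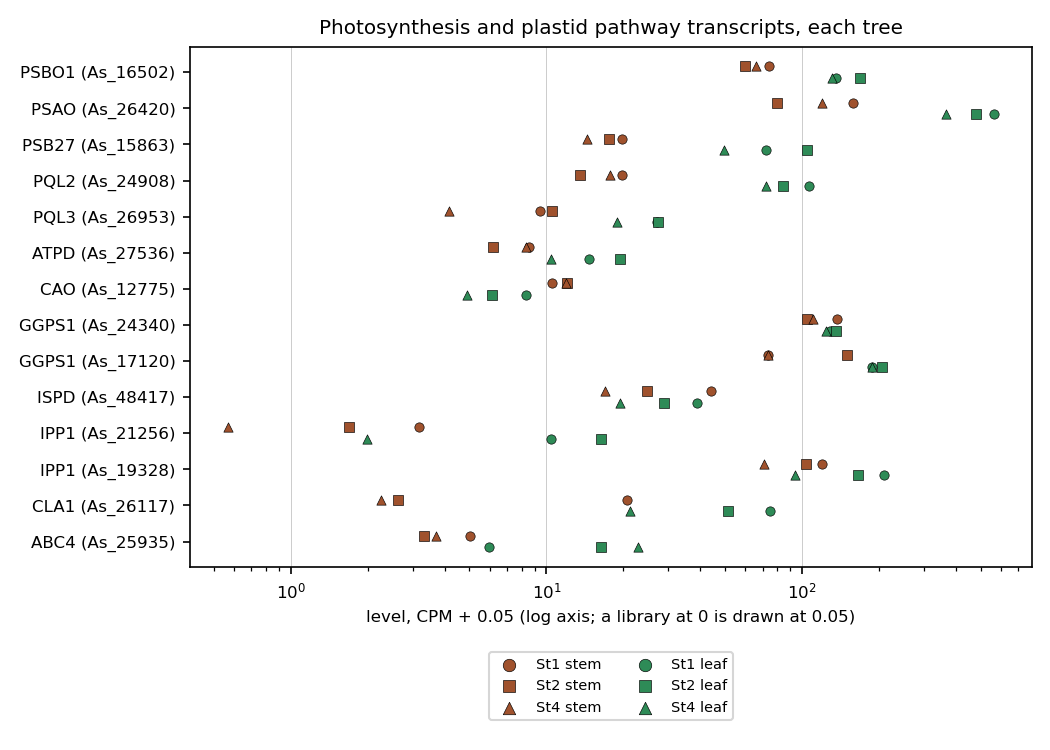
Levels of the 14 photosynthesis and plastid pathway transcripts in each tree (CPM plus 0.05, log axis), stems in brown and leaves in green. The photosystem transcripts in the upper rows have all stems to the left of all leaves, whereas CAO has its stems to the right and GGPS1 As_24340 and ISPD overlap.

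The 4 tested transcripts of water and ion transport were all higher in stem, and the fifth was too low to be tested. PIP1;4 As_44068, an aquaporin of the plasma membrane, had 868, 1075 and 1033 CPM in stems, against 211, 252 and 174 CPM in leaves. The log2 fold change was 2.23 ± 0.18 (SE, edgeR adjusted p = 0.00077, n = 3 trees). The second PIP1;4 transcript, As_20592, had 43.8, 11.7 and 28.3 CPM in stems and 1.53, 0.998 and 0.604 CPM in leaves, a log2 fold change of 4.60 ± 0.39. In As_20592 the stem of St1 was the highest and that of St2 the lowest, and in As_44068 the reverse.

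ERD4 (As_2569), named for early response to dehydration, had 26.7, 7.39 and 20.2 CPM in stems and 0.118, 0.200 and 0.241 CPM in leaves, a log2 fold change of 6.40 ± 0.46. SLAH3, an anion channel, had 3.99, 3.70 and 10.1 CPM in stems and 0.472, 0.998 and 0.604 CPM in leaves. No stem overlapped a leaf for either.

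Of 4 raffinose transcripts 3 were higher in stem and 1 was not called, where 13.8% of all tested transcripts were higher. The study listed raffinose transcripts among those higher in equatorial than in subtropical trees, partly on the libraries used here. GolS1 (As_13564), which makes galactinol, the galactosyl donor for raffinose, had 523, 1487 and 750.5 CPM in stems, against 16.3, 5.59 and 3.50 CPM in leaves, a log2 fold change of 6.90 ± 0.72 (edgeR adjusted p = 0.0015). RFS4 (As_11264), of the raffinose and stachyose synthase family, had 452, 839 and 780.0 CPM in stems, against 1.65, 0.998 and 1.21 CPM in leaves, a log2 fold change of 9.02 ± 0.37. SIP1 (As_13250), of the same family, had 125, 629 and 401 CPM in stems and 1.18, 2.50 and 1.21 CPM in leaves, a log2 fold change of 7.76 ± 0.35. In each of these 3, St1 was the lowest stem and St2 the highest, whereas most wall transcripts had St2 lowest. SIP2, an alpha-galactosidase by its match, overlapped between the tissues, at 0.75 ± 0.33 with an adjusted p of 0.15.

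Among 8 abscisic acid and stress regulators, 2 were higher in stem, none was lower and 6 were not called. Of all tested transcripts, 13.8% were higher and 13.2% lower. At an unadjusted p under 0.05, 4 of the 8 were higher and 1 was lower. DESeq2 and the exact test each called 3 higher and none lower, and edgeR with library totals called 4 higher. RAP2.3 (As_38607), low in both tissues, had a log2 fold change of 3.42 ± 1.12 and missed the threshold (adjusted p = 0.071). HB-7 (As_17082), a homeodomain factor induced by abscisic acid, had 9.11, 56.1 and 56.9 CPM in stems, against 1.42, 3.99 and 2.90 CPM in leaves, a log2 fold change of 3.70 ± 0.33. RAP2.4 As_15910, an ERF factor, was higher by 1.75 ± 0.33, a call lost without St1 (adjusted p = 0.085) and without St2 (0.072). NCED3 (As_19228), which catalyses the committed step of abscisic acid synthesis, varied within the stems, at 6.55, 20.2 and 54.5 CPM, against 13.8, 20.2 and 6.04 CPM in leaves, and its log2 fold change was 0.60 ± 0.80. RD26, a NAC factor of the same response, had 29.8, 124 and 149 CPM in stems and 129, 145 and 100.1 CPM in leaves (adjusted p = 0.47). The stem of St1, sampled at 15 h 15, was the lowest of the stems in 6 of the 8, but hour, weather and tree cannot be told apart here.

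**Figure D4:**
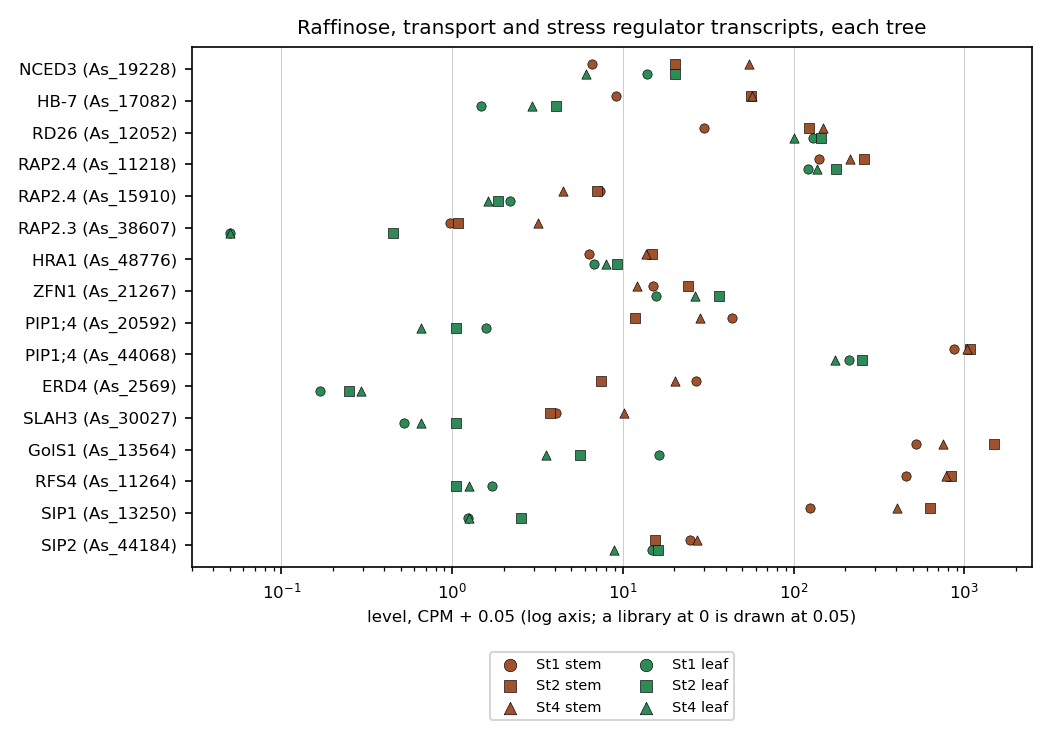
Levels of the tested transcripts of the abscisic acid and stress, transport and raffinose lists in each tree (CPM plus 0.05, log axis), stems in brown and leaves in green. GolS1, RFS4, SIP1, ERD4 and both PIP1;4 transcripts have all stems to the right of all leaves, whereas NCED3, RD26, HRA1 and SIP2 overlap.

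Antioxidant and vitamin transcripts moved in both directions. Of 9 transcripts 2 were higher in stem, 3 lower and 4 were not called, where 13.8% of all tested transcripts were higher and 13.2% lower. FSD2 (As_15772), an iron superoxide dismutase of plastids, had 64.8, 66.6 and 41.6 CPM in stems, against 339, 196 and 221 CPM in leaves, a log2 fold change of -2.12 ± 0.22. CSD2, the plastid copper/zinc superoxide dismutase, fell by 1.07 ± 0.18. CSD1 As_17209, whose product is cytosolic, had 566, 396 and 386 CPM in stems and 260.0, 222 and 147 CPM in leaves, a log2 fold change of 1.12 ± 0.17. A second CSD1 transcript, As_26546, overlapped and was not called (0.50 ± 0.18, adjusted p = 0.087). DRT102 was higher by 1.59 ± 0.28, and PDX2 As_4337, of vitamin B6 synthesis, was lower, with -1.18 ± 0.28. The DRT102 call was lost without St2 (adjusted p = 0.060), and the PDX2 call without St1 (0.089) and without St2 (0.12).

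Light and flavonoid transcripts gave 2 higher, 1 lower and 3 not called among 6 tested of 8. The shares among all tested transcripts were 13.8% higher and 13.2% lower. PHOT2 (As_13960), a blue light receptor, had 196, 177 and 159 CPM in stems, against 549.8, 688 and 650.3 CPM in leaves, a log2 fold change of -1.83 ± 0.17. TT7 (As_3457), the flavonoid 3′-hydroxylase, had 2.56, 6.62 and 6.76 CPM in stems and 0, 0.200 and 0 CPM in leaves. UGT78D2, a flavonoid glucosyltransferase, was higher by 2.34 ± 0.52, a call lost without St1 (adjusted p = 0.051). Both matches of HY5, a factor that acts downstream of light receptors, overlapped between stem and leaf.

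In the cold response and flowering list, AGL24 (As_10296), a MADS factor that promotes flowering in Arabidopsis, had 1.07, 2.67 and 0.585 CPM in stems, against 17.4, 24.7 and 15.6 CPM in leaves, a log2 fold change of -3.90 ± 0.36. ATSGS1 was higher by 1.64 ± 0.30, and the other 2 tested of 5 were not called. None of the 5 tested heat shock and chaperone transcripts, of 8 listed, was called in the main edgeR fit. In that fit none had an unadjusted p under 0.05, and DESeq2 and the exact test called none. Scaled by library totals, edgeR called 1 higher. The lowest edgeR adjusted p over the alternatives was 0.025 for As_11099, 0.035 for As_12732, 0.039 for As_20859 and 0.042 for As_24319. HSP17.6II As_24319 shows the spread among trees, with 7.12, 115 and 65.2 CPM in stems and 94.2, 169 and 62.8 CPM in leaves.

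Of 13 mitochondrially encoded transcripts 10 were tested, COX3 was higher in stem (1.40 ± 0.33, adjusted p = 0.024) and 9 were not called. Among all tested transcripts 13.8% were higher. The COX3 call was lost without St1 (adjusted p = 0.15) and without St2 (0.052). Aconitase and both homologs of alanine-glyoxylate aminotransferase gave no call, and the aminotransferase homologs were too low to be tested. Of the 12 other transcripts that the study listed as candidates of selection, 1 was called, where 27.0% of all tested transcripts were called. The called candidate was ARD4, which had 72.6, 112 and 109 CPM in stems and 158, 337 and 301 CPM in leaves, a log2 fold change of -1.39 ± 0.16.

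Control primers for quantitative PCR were designed on 4 transcripts similar to housekeeping genes, of which UBQ11 and UBQpase served as references by the study's methods. The 4 were not called by edgeR, DESeq2 or the exact test, but 3 of them had an unadjusted p under 0.05, 1 higher and 2 lower. EIFa (As_19713) was the steadiest by its fold change, with 72.2, 55.4 and 73.4 CPM in stems and 66.3, 63.8 and 71.6 CPM in leaves, at -0.01 ± 0.14. UBQ11, so named among the primers, had 365, 355 and 352 CPM in stems and 459, 558 and 419.6 CPM in leaves, at -0.41 ± 0.15. UBQpase had the opposite sign, at 0.51 ± 0.17.

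Over all 130 named transcripts 42 were higher, 17 lower, 55 not called and 16 not tested. Among all transcripts tested, 13.8% were higher and 13.2% lower. The transcripts farthest apart had no match in the tables used. As_11088 had 249, 315 and 205 CPM in stems and no count in leaves, at least 2242-fold higher against the floor of 3 counts, and As_17694 was at least 564-fold higher. As_23986 had no count in stems and 69.4, 155 and 34.5 CPM in leaves, at least 1242-fold lower in stem. As_23788 had 2 counts in the stem of St4 and none in the other stems, against 2091, 1386 and 466 CPM in leaves.

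The same comparison was also made in the equatorial trees. In 1 fit over the 12 stem and leaf libraries of both sites, with the tree as a block, 35054 transcripts were tested. In equatorial trees 9343 were called (26.7%), 4779 of them higher in stem (13.6% of those tested), and in subtropical trees 8712. The difference between the sites, the site by tissue interaction, was called for 20 transcripts (0.0571%), 19 of them with a higher (0.0542%) and 1 with a lower (0.00285%) stem minus leaf value in subtropical trees, and 2637 had an unadjusted p under 0.05. DESeq2 called 198, and without the tree block edgeR called 4.

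Most wall transcripts were called higher in stem in subtropical trees, and 18 of 37 in equatorial trees. All 37 could be tested in this fit. In subtropical trees 28 were higher and 1 lower (median 4.54 on the log2 scale), and in equatorial trees 18 were higher and 2 lower (median 2.42). The interaction was called for none of the 37 by edgeR, with adjusted p of 0.27 to 0.91. It had an unadjusted p under 0.05 in 14 of the 37, against 2637 of all 35054 transcripts, and DESeq2 called 2. These lists were chosen partly on a site difference in the leaf libraries, which bears on the interaction. That the gap was not called does not show that the sites were alike: in CESA4 the interaction was 1.86 ± 1.17 on the log2 scale and in LAC4 3.55 ± 1.10.

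Levels of LAC4 by tree, on the scale of the 12 libraries, varied most among equatorial samples. Subtropical stems had 213, 75.6 and 155 CPM, and subtropical leaves 1.38, 0.486 and 1.17 CPM. Equatorial stems had 52.5, 117 and 961 CPM for Eq4, Eq5 and Eq6, and equatorial leaves 25.6, 3.91 and 35.4 CPM. All equatorial leaves lay above all subtropical leaves, which is the direction in which the study chose the transcript. The summed xylem markers followed the same pattern, with 252 to 654 CPM in subtropical stems, 169 to 3064 CPM in equatorial stems, 7.75 to 10.7 CPM in subtropical leaves and 17.6 to 114 CPM in equatorial leaves. The part of xylem content in the leaf samples was not tested.

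Raffinose transcripts had larger gaps in subtropical trees in the fitted values, without a call on the difference by edgeR. GolS1 differed by 6.89 in subtropical and 1.81 in equatorial trees on the log2 scale, an interaction of 5.09 ± 0.81 (adjusted p = 0.15). For RFS4 the interaction was 3.60 ± 0.58. All 4 members of the list had an unadjusted p under 0.05 for the interaction, against 2637 of all 35054 transcripts, and DESeq2 called 3. The study listed raffinose transcripts for a site difference in these same libraries, so the interaction is not independent of that choice. For the photosynthetic complexes, 5 of 6 were lower in stem in subtropical and 4 of 6 in equatorial trees, with medians of -1.87 and -0.95. No interaction among them was called by edgeR, 2 had an unadjusted p under 0.05, and DESeq2 called 1.

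The named transcripts with a called interaction were 1 GGPS1 and 1 IPP1 transcript. IPP1 As_19328 had 115, 100.2 and 66.5 CPM in subtropical stems and 205, 160.5 and 91.2 CPM in subtropical leaves. In equatorial trees it had 4.07, 4.11 and 3.89 CPM in stems and 202, 210 and 71.6 CPM in leaves. Leaf levels overlapped between the sites and stem levels did not. GGPS1 As_17120 had 70.6, 145 and 69.3 CPM in subtropical stems and 184, 199.7 and 183 CPM in subtropical leaves, against 19.1, 21.3 and 2.71 CPM in equatorial stems and 366, 446 and 87.3 CPM in equatorial leaves. Here too every subtropical stem was above every equatorial stem. The interaction was 4.51 ± 0.40 for IPP1 (adjusted p = 0.016) and 3.45 ± 0.34 for GGPS1 (adjusted p = 0.025), and both lost the call when any 1 of the trees St1, St2, St4 or Eq5 was left out (adjusted p of 0.082 to 0.21). With no block by tree the adjusted p was 0.046 for IPP1 and 0.71 for GGPS1.

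**Figure D5:**
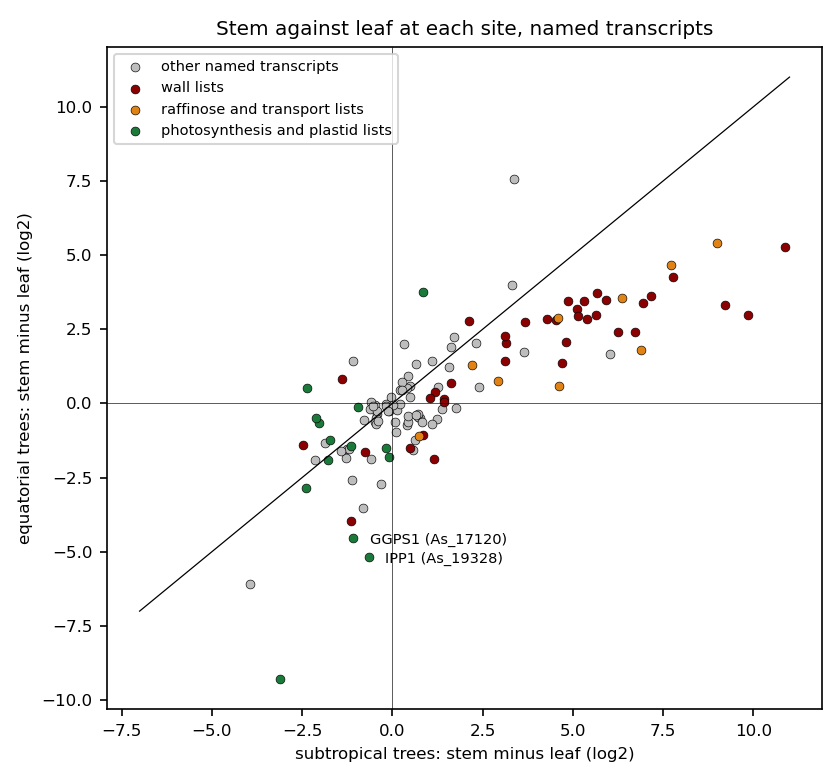
Stem minus leaf log2 fold changes of the named transcripts in subtropical (x axis) and equatorial trees (y axis), from the fit over 12 libraries, with the line of equal values. Most wall, raffinose and transport transcripts lie right of the line, and the labelled GGPS1 and IPP1 transcripts, the only named ones with a called interaction, lie below it.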

How the data were processed

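RNA of leaves, stems and flowers of 6 trees was sequenced as 18 libraries (1 for each tree and tissue), with TruSeq libraries on an Illumina GA IIx by the study's methods. The authors assembled a transcriptome, mapped reads to it with Bowtie (0.12.2 in the submitters' processing notes) and deposited raw counts of uniquely mapped reads per transcript. Reads shared by close copies are not in such counts, which lowers the values of duplicated genes. The single-sample files equalled their columns of the table in all 18 cases, and replicate libraries of a tissue differed by far more than sampling noise (chi-square per transcript 26.5 to 47.2).

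Only the 6 stem and leaf libraries of the subtropical trees entered the main test, edgeR's quasi-likelihood test (edgeR 4.0.16, limma 3.58.1, R 4.3.3) with TMM scaling, the default filterByExpr filter by tissue, tree plus tissue as terms, and a threshold of 0.05 on the Benjamini-Hochberg adjusted p over all 31766 transcripts kept. Every adjusted p is from this test or, for the site by tissue interaction, from the same test over 12 libraries, unless another tool is named. Standard errors were derived from F, as the size of the log2 fold change divided by its root. The pairing comes from the labels: both tissues of a name are the same tree. Deviations of stem and leaf from their tissue means correlated across transcripts by 0.37 in St1, 0.32 in St2 and 0.083 in St4. Log2 CPM used for distances has a prior count of 2. The deposited counts sum to 8749713 to 14528522 per library. The biological coefficient of variation left after the tree and tissue terms was 0.273. For transcripts with a few counts in 1 tissue, counting error adds to this spread. Bounds from a count of 0 (3 counts) cover counting error only. The test was tried on simulated data with known changes.

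Alternatives were no replicate block, DESeq2 1.42.0, edgeR's exact test (named in the study's methods), RLE scaling, library totals, a filter of more than 1 CPM (3 libraries or more) or none, fits over 12 and 18 libraries, and leaving out each tree. Named transcripts are those that the study's supplementary tables pair with an Arabidopsis match. Values by tree are given for part of the cellulose, xylan, lignin, photosystem and chlorophyll lists, and most of their other tested members by fold change alone. In the other lists, values by tree or fold changes are given for some called members, mostly up to 2 in each direction. The 2 unmatched transcripts farthest apart in each direction are also given. Some others were added after their values were seen (uncalled, reference and second-copy transcripts). Members and lists were chosen with earlier results of these data known. Transcript sequences and positions were not used here.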

Additional observations from a re-analysis of the deposited data

Results flagged for a closer look

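The stem minus leaf log2 fold change of 2 named transcripts differed between the sites by the site by tissue interaction of edgeR's quasi-likelihood test. For GGPS1 (As_17120) the subtropical value exceeded the equatorial one by 3.45 (adjusted p = 0.025), and for IPP1 (As_19328) by 4.51 (adjusted p = 0.016), 2 of the 127 named transcripts tested in that fit. In both, stem levels of all 3 subtropical trees were above those of all 3 equatorial trees. Most named transcripts were listed by the study for a site difference in these libraries, so these results are not independent of that choice. Over the 12 alternatives the adjusted p ran from 8.1e-15 (DESeq2) to 0.71 (no replicate block) for GGPS1 and from 6.3e-19 (DESeq2) to 0.21 (without St2) for IPP1.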

How the results depend on the processing

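The fit with no replicate block called 7079 transcripts against 8561 in the paired fit, and 6817 of the paired calls remained. Other settings that kept all trees called 8230 to 9843. Leaving out 1 tree gave 5021 to 8198 calls, 2466 to 3933 of them higher in stem and 2555 to 4265 lower, with the lowest counts without St2 (5021) and without St1 (5626). Library totals called 6769 higher in stem. No called transcript that remained called turned its direction in any of the 12 alternatives. Such a turn is hardly possible between fits that share libraries, so this says little about stability.

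The interaction count was 4 with no replicate block, 198 with DESeq2, 19 to 28 in the other settings with all trees, and 5 to 29 without 1 tree: 9, 5 and 6 without St1, St2 and St4, and 22, 8 and 29 without Eq4, Eq5 and Eq6.

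Of 59 named calls, 45 held in all 12 alternatives. Calls lost in at least 1 were those of AT4G34480 (As_45387), AT5G56590 (As_18420), PQL3, GGPS1 (As_17120), both IPP1, CLA1, ABC4, UGT78D2, CSD2, DRT102, PDX2 (As_4337), RAP2.4 (As_15910) and COX3. Of 55 named transcripts not called, 21 were called under some alternative, and 13 turned direction. With library totals the log2 value became 0.13 for As_24340, 0.21 for As_48417, 0.19 for As_36206, 0.14 for As_18774, 0.15 for As_11099, 0.26 for As_19713 and 0.18 for As_11391. Over 18 libraries it became -0.016 for As_14393. When each tree was left out in turn, it ran from -0.028 to 0.185 for As_46493, -0.216 to 0.073 for As_36206, -0.832 to 0.389 for As_11099, -0.897 to 0.114 for As_12732, -0.510 to 1.502 for As_19228, -1.16 to 0.144 for As_12052, -0.332 to 0.595 for As_45303, -0.113 to 0.071 for As_19713 and -0.018 to 0.0498 for As_14393. The causes were not tested. With 3 trees, 1 season and 1 library for each tissue, the spread between trees limits what these values say, as do counts near 0 in leaves for many wall transcripts.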
